A study of Mus musculus with 25 samples.

Results

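Sham-operated mice 16 weeks after surgery were set against sham-operated mice 4 weeks after surgery, gene by gene, in lumbar dorsal root ganglia. The comparison took the arrays whose titles name sham surgery at either time, 3 at 16 weeks and 3 at 4 weeks, which is 6 of the 25 arrays of the series, and all genes with a name. Of 30142 named genes, 20260 lay above a limit of 4.52 in mean log2 intensity and were tested. All mice were male C57BL/6. Sham mice were operated on the right knee when 10 weeks old, without destabilisation of the medial meniscus, the ligament lesion that gives the osteoarthritis model its abbreviation, DMM. They were 26 weeks old at the 16-week time and 14 weeks old at the 4-week time. Mice of the other groups were either naive, with no operation, at the same ages, or had DMM surgery, at the same times; each of these groups had 3 arrays. Only 1 sham array stood at 8 weeks, because the submitters removed the others for quality. The tissue was taken from ganglia L3 to L5, and the labels give neither the side nor the number of mice behind each array, so p-values measure the spread between arrays. Within sham mice, age and time since the operation cannot be told apart.

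The somata of sensory neurons for skin, muscle and joint sit in the dorsal root ganglia. Each soma is wrapped by satellite glia, its axon is ensheathed by Schwann cells, and macrophages, vessels, fibroblasts and a perineurial sheath fill the space between. Peptidergic nociceptors release neuropeptides, non-peptidergic nociceptors carry Mas-related receptors, and touch neurons include a class of unmyelinated fibre that makes tyrosine hydroxylase. After axon damage these neurons switch on a set of transcription factors, neuropeptides and growth proteins, widely used as a sign of nerve injury. In this model a sham operation usually opens the joint and leaves the meniscal ligament intact.

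The 6 sham arrays were alike in overall brightness, with transcript medians of 4.90 to 4.96. Correlations were 0.9973 to 0.9977 between arrays of a sham group and 0.9945 to 0.9971 between the sham groups. Medians of the negative control probe sets were 5.25, 5.22 and 5.17 at 16 weeks and 5.07, 5.13 and 5.21 at 4 weeks, so they overlapped. The tissue label held: the 17 general sensory neuron markers averaged 14.85, 14.73 and 14.81 at 16 weeks and 14.86, 14.86 and 14.82 at 4 weeks, far above the median level of 7.31 over all genes tested.

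Ganglia of sham mice differed modestly between 16 and 4 weeks. At an adjusted p under 0.05, limma called 357 genes (1.76% of those tested), of which 188 (0.928%) were higher and 169 (0.834%) lower at 16 weeks. The median change of the called genes was 0.37 among those higher and -0.36 among those lower on the log2 scale, only 4 changed by more than 1 and 72 by more than 0.5. The median over all genes tested was 0.01. The 3 values at 16 weeks did not overlap the 3 at 4 weeks in any called gene, as was the case for 5252 genes overall (25.9%), 3086 higher (15.2%) and 2166 lower (10.7%). An unadjusted p under 0.05 was found for 3742 genes (18.5%). Predicted genes and pseudogenes made up 29.3% of the genes called higher and 1.78% of those called lower, against 29.8% of all genes tested.

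The number of calls fell whenever a single sham array was left out, and the cause of this was not tested. It was 31 without sham replicate 1 at 16 weeks, 7 without replicate 2 and 268 without replicate 3, and it was 93, 11 and 189 without replicates 1, 2 and 3 at 4 weeks. A fit on the 6 arrays alone, without the spread of the other groups, called 0 genes with limma, with 3928 at an unadjusted p under 0.05, so every named call below was lost there. Purb, Bpnt2, Mff, Ndufs7 and Rpl28-ps1, which were chosen after their values were seen because their p was smallest, passed in all other fits, those without an array included.

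Among the 12 genes of largest rise that passed the test, 5 give microRNAs or long noncoding RNAs; some genes that did not pass had larger differences. The largest change among called genes was that of Mir5125, a microRNA gene whose sequence lies inside the span of Srrm2, which codes for a splicing factor. Mir5125 had log2 intensities of 11.46, 10.94 and 10.8 at 16 weeks, against 9.41, 9.62 and 10.0 at 4 weeks. It rose by 1.39 ± 0.28 (SE), or 2.62-fold, with an adjusted p of 0.0246. Srrm2 itself changed by 0.34 with an adjusted p of 0.108. Mir544 and Mir667 lie between Dlk1 and Dio3 on chromosome 12, an imprinted cluster that holds many microRNAs. Mir544 had 8.54, 7.83 and 7.47 at 16 weeks, against 6.69, 6.75 and 7.15 at 4 weeks, a rise of 1.09 ± 0.26 with an adjusted p of 0.038. Mir667 had 10.62, 10.42 and 9.97 at 16 weeks, against 9.4, 9.24 and 9.54 at 4 weeks, a rise of 0.95 ± 0.21 with an adjusted p of 0.0317. The groups were apart in each of these 3 genes. The array probes the transcript of the microRNA gene, so these values do not separate the mature arms from their precursor.

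The mature sequences that these genes give, from RefSeq on GRCm38.p6, are shown because the 3 genes were the microRNA genes among the 12 called genes of largest rise, with the seed (bases 2 to 8) in capitals. No seed is shared among them. The mature microRNA of Mir5125 lies at chr17:23823339-23823358 on the plus strand. The arms of Mir544 lie at chr12:109729335-109729355 and chr12:109729371-109729392, and those of Mir667 at chr12:109720020-109720044 and chr12:109720061-109720083, all on the plus strand.
mmu-miR-5125: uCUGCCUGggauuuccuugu
mmu-miR-544-5p: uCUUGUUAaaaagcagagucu
mmu-miR-544-3p: aUUCUGCAuuuuuagcaagcuc
mmu-miR-667-5p: cGGUGCUGguggagcagugagcacg
mmu-miR-667-3p: uGACACCUgccacccagcccaag

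The other genes between Dlk1 and Dio3 were listed after these values were seen. Of 45 tested members, 34 were higher and 11 lower at 16 weeks, with a median of 0.38. Mir544 and Mir667 were the 2 called, against 0.928% of all genes tested called higher. Without overlap 16 members were higher and 1 lower, 37.8% of the list against 25.9% of all genes tested. Mir495 had 8.15, 8.34 and 8.07 at 16 weeks, against 7.24, 6.63 and 7.0 at 4 weeks, a difference of 1.23 with an adjusted p of 0.0524. The mean of the list was 7.36, 7.12 and 7.02 at 16 weeks and 6.77, 6.74 and 6.92 at 4 weeks, and these did not overlap. The median fell to 0.24 without sham replicate 2 at 4 weeks. In naive mice the same members had a median of 0.44 and 20 were called higher (6.08% of all genes tested were), and in DMM mice the median was 0.28 with 0 called.

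Lncpint, which gives a long noncoding RNA induced by the tumour suppressor Trp53, had 10.14, 10.11 and 9.96 at 16 weeks, against 8.99, 9.01 and 9.52 at 4 weeks. It rose by 0.90 ± 0.22 with an adjusted p of 0.0432. The long noncoding RNA gene 9530091C08Rik had 7.63, 7.88 and 7.65 at 16 weeks, against 6.82, 6.43 and 7.15 at 4 weeks, a rise of 0.92 ± 0.22 with an adjusted p of 0.038. Leng8 had 11.68, 11.38 and 11.1 at 16 weeks, against 10.2, 10.39 and 10.66 at 4 weeks, and rose by 0.97 ± 0.20. Gm6665, a predicted gene, rose by 0.93 ± 0.20.

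**Figure D1:**
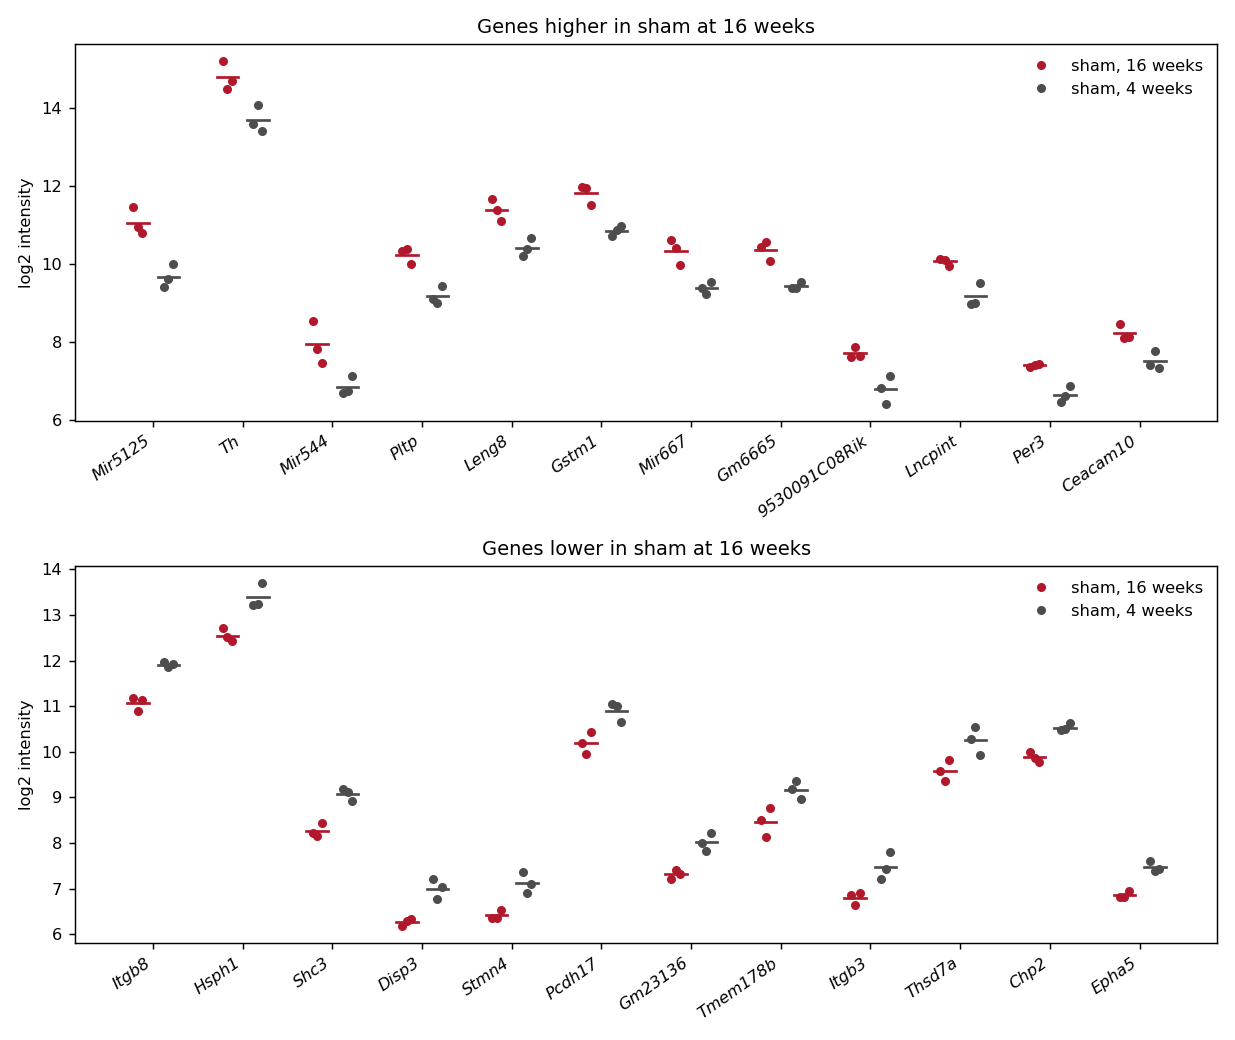
Log2 intensity of the 12 genes with the largest rise (upper panel) and the 12 with the largest fall (lower panel) among called genes, with a point for each sham array at 16 weeks (red) and 4 weeks (grey) and a bar for the group mean of 3. The genes were chosen for groups that do not overlap; Mir5125 shows the largest gap, 11.07 at 16 weeks against 9.68 at 4 weeks in the means.

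Th codes for tyrosine hydroxylase, the rate-limiting enzyme of catecholamine synthesis, and marks touch neurons with unmyelinated axons. Th had 15.2, 14.49 and 14.68 at 16 weeks, against 13.59, 14.08 and 13.41 at 4 weeks. It rose by 1.09 ± 0.28, or 2.14-fold, with an adjusted p of 0.0495, close to the threshold, and lost the call whichever of the 6 arrays was left out. The list of touch, proprioceptive and cold neuron markers that holds Th had a median of -0.08 over 13 members. Th was the only member called, where 0.928% of all genes tested were called higher.

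Pltp and Gstm1 were also among the 12 called genes of largest rise. Pltp, which codes for phospholipid transfer protein, had 10.33, 10.39 and 10.0 at 16 weeks, against 9.12, 9.0 and 9.45 at 4 weeks. It rose by 1.05 ± 0.18, or 2.07-fold, with an adjusted p of 0.015. Gstm1, a glutathione S-transferase that conjugates glutathione to reactive compounds, had 11.97, 11.95 and 11.52 at 16 weeks, against 10.71, 10.87 and 10.98 at 4 weeks. It rose by 0.96 ± 0.15, or 1.95-fold, with an adjusted p of 0.00875, and without sham replicate 2 at 16 weeks the call was lost. All 3 arrays at 16 weeks were above all 3 at 4 weeks in both genes.

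The family of glutathione S-transferases was listed after these values were seen. Of 17 tested members, 14 were higher and 3 lower, with a median of 0.24. The 4 called were Gstm1, Gstm3, Gstt1 and Gstz1, all higher, where 0.928% of all genes tested were called higher. Gstt1 had 7.83, 7.85 and 7.73 at 16 weeks, against 6.98, 7.24 and 6.98 at 4 weeks, and rose by 0.73 ± 0.15. Gstm3 had 6.55, 6.61 and 6.49 at 16 weeks, against 6.04, 6.06 and 6.05 at 4 weeks, and rose by 0.50 ± 0.09. Gstz1 had 10.52, 10.46 and 10.54 at 16 weeks, against 10.15, 10.12 and 9.88 at 4 weeks, and rose by 0.45 ± 0.10. The mean over the family was 8.35, 8.33 and 8.31 at 16 weeks, against 8.05, 8.06 and 8.04 at 4 weeks. Members of the mu class are similar in sequence, and how the probe sets separate them is not given in the sources used here.

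Mff and Ndufs7 had the smallest p among the genes higher at 16 weeks. Mff, a receptor on the outer membrane that recruits the fission machinery, had 14.38, 14.25 and 14.21 at 16 weeks, against 13.91, 13.79 and 13.77 at 4 weeks, a rise of 0.46 ± 0.07 with an adjusted p of 0.00649. Ndufs7, a subunit of respiratory complex I, had 12.25, 12.26 and 12.23 at 16 weeks, against 11.91, 11.79 and 11.92 at 4 weeks, a rise of 0.37 ± 0.05 with an adjusted p of 0.00649. Ceacam10, of a family of immunoglobulin-like adhesion proteins, had 8.47, 8.12 and 8.14 at 16 weeks, against 7.43, 7.77 and 7.34 at 4 weeks, a rise of 0.73 ± 0.18 with an adjusted p of 0.0453, and it lost the call whichever sham array was left out.

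Among the genes called lower at 16 weeks, Itgb8 had the largest fall. Itgb8, an integrin beta subunit whose heterodimer activates latent transforming growth factor beta, had 11.17, 10.89 and 11.14 at 16 weeks, against 11.96, 11.85 and 11.92 at 4 weeks. It fell by 0.85 ± 0.16 on the log2 scale, 1.80-fold, with an adjusted p of 0.0181. Itgb3, another integrin beta subunit, had 6.87, 6.63 and 6.9 at 16 weeks, against 7.2, 7.44 and 7.8 at 4 weeks, and fell by 0.68 ± 0.14. In both genes every 16-week array lay below every 4-week array.

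Shc3, a neuronal adaptor of receptor tyrosine kinases, had 8.22, 8.15 and 8.43 at 16 weeks, against 9.18, 9.11 and 8.91 at 4 weeks, and fell by 0.80 ± 0.16 with an adjusted p of 0.0263. Epha5, a receptor for ephrins that guides axons, had 6.81, 6.81 and 6.94 at 16 weeks, against 7.61, 7.38 and 7.44 at 4 weeks, and fell by 0.62 ± 0.15, a call lost whichever sham array was left out. Pcdh17, a protocadherin of neuronal contacts, had 10.2, 9.95 and 10.44 at 16 weeks, against 11.05, 11.01 and 10.65 at 4 weeks, and fell by 0.71 ± 0.14. These 3 genes were apart between the groups, with the narrowest gap in Pcdh17.

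Hsph1, a cochaperone of the heat shock response, had 12.71, 12.51 and 12.42 at 16 weeks, against 13.22, 13.24 and 13.7 at 4 weeks, and fell by 0.84 ± 0.19 with an adjusted p of 0.0334. Like Th, it lost the call whichever sham array was left out. It was the 1 member called among 16 cold-inducible RNA binders and heat shock chaperones, whose median was -0.09. Of all genes tested, 0.834% were called lower. The remaining called genes of largest fall were Disp3 (-0.73), Tmem178b (-0.70), Thsd7a (-0.67), Chp2 (-0.65) and Gm23136 (-0.70), a small nucleolar RNA gene. Their adjusted p-values lay between 0.0312 and 0.0334, and Chp2 and Gm23136 lost the call whichever sham array was left out.

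The 2 smallest p-values of the comparison belonged to lower genes. Purb, which codes for a protein that binds purine-rich single-stranded DNA and RNA, had 11.76, 11.64 and 11.79 at 16 weeks, against 12.32, 12.42 and 12.23 at 4 weeks, and fell by 0.59 ± 0.08 with an adjusted p of 0.00265. Bpnt2, a phosphatase of the Golgi, had 11.24, 11.14 and 11.24 at 16 weeks, against 11.56, 11.72 and 11.58 at 4 weeks, and fell by 0.41 ± 0.05 with the same adjusted p of 0.00265.

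The genes known to rise in sensory neurons after nerve injury lay lower at 16 weeks in nearly every case, though 1 passed the test. Of 24 tested members 23 were lower and 1 higher, and the median was -0.43. Without overlap 15 were lower, 62.5% of the list, against 10.7% of all genes tested. Stmn4 was the 1 member called, where 0.834% of all genes tested were called lower. Stmn4, a stathmin that destabilises microtubules, had 6.35, 6.35 and 6.53 at 16 weeks, against 7.36, 6.91 and 7.1 at 4 weeks, and fell by 0.71 ± 0.16 with an adjusted p of 0.0334. Its call was lost without sham replicate 1 or 2 at 16 weeks, and without each 4-week sham array in turn. Npy, the neuropeptide Y gene, had 5.08, 5.83 and 5.22 at 16 weeks, against 8.85, 6.72 and 7.8 at 4 weeks, a difference of -2.41 ± 0.65 with an adjusted p of 0.0592. The negative control medians of the 16-week arrays were 5.25, 5.22 and 5.17, close to Npy in replicates 1 and 3, so the size of its fall is uncertain. Nts, for neurotensin, had 9.97, 9.41 and 9.94 at 16 weeks, against 12.17, 11.88 and 11.73 at 4 weeks, a difference of -2.15 with an adjusted p of 0.0711. In each of these 3 genes the arrays at 4 weeks were the higher ones without exception.

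The injury transcription factor Atf3 had 7.04, 6.72 and 6.85 at 16 weeks, against 8.51, 7.58 and 7.86 at 4 weeks, a difference of -1.11 with an adjusted p of 0.222. Cacna2d1, the calcium channel subunit that binds gabapentin, differed by -0.55 with an adjusted p of 0.0611, and the growth cone protein gene Gap43 by -0.43 with an adjusted p of 0.137. Sprr1a, a growth-associated gene singled out after its values were seen, had 5.69, 6.64 and 7.12 at 16 weeks, against 11.78, 8.19 and 10.07 at 4 weeks. Its difference was -3.53 ± 1.54 with an adjusted p of 0.224, and the SD was 0.73 at 16 weeks and 1.79 at 4 weeks (n = 3 each).

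The mean over the injury list was 8.69, 8.52 and 8.65 in sham at 16 weeks, against 9.72, 9.1 and 9.19 in sham at 4 weeks, and 9.84 in the sham array at 8 weeks. Mice with no operation showed the same order. Their means were 8.53, 8.62 and 8.64 at the 16-week age and 10.02, 9.83 and 10.05 at the 4-week age, with a median change of -0.84 and 16 members called lower, against 12.7% of all genes tested. In DMM mice the means were 8.52, 8.67 and 8.74 at 16 weeks and 9.12, 9.9 and 8.8 at 4 weeks. The median change in DMM mice was -0.34 and 1 member was called lower, against 1.8% of all genes tested.

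**Figure D2:**
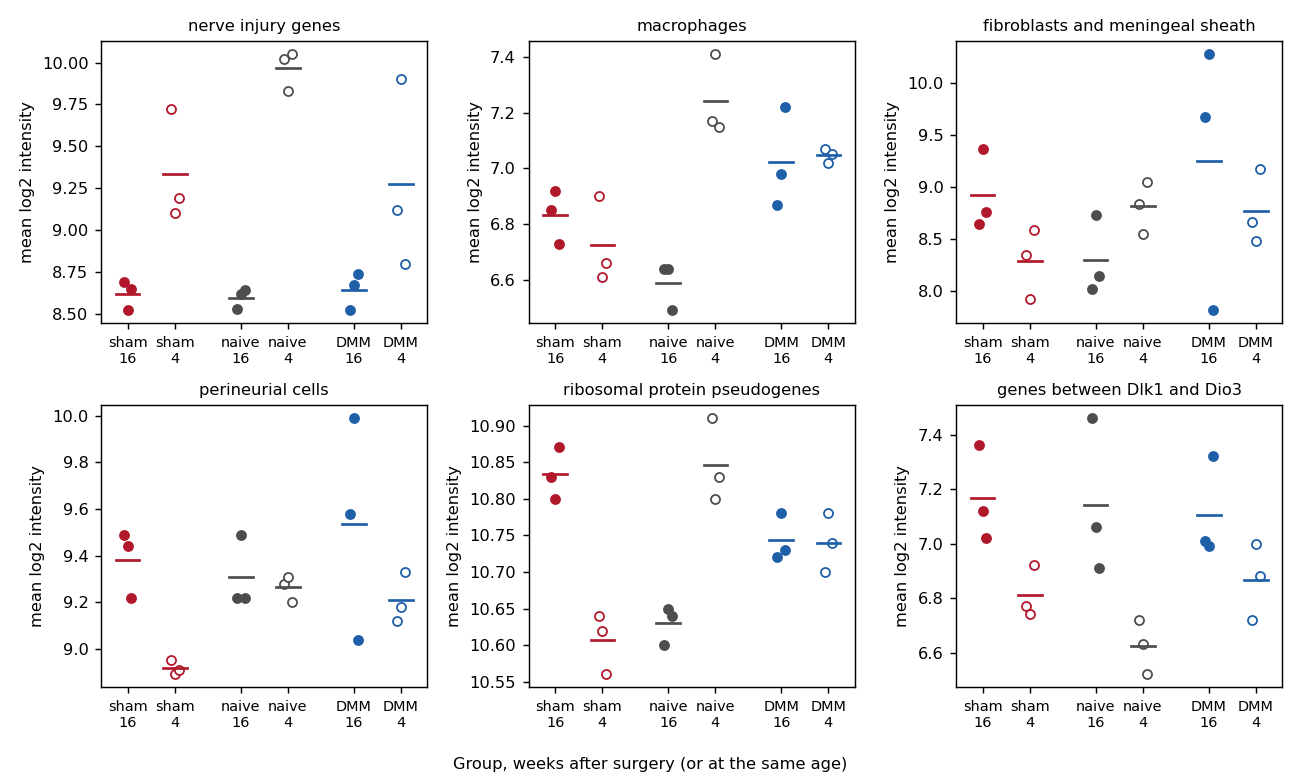
Mean log2 intensity over the tested members of 6 gene lists, with a point for each array, filled for 16 weeks and open for 4 weeks, and a bar for the group mean of 3. The nerve injury list lay at 8.52 to 8.69 in sham at 16 weeks and at 9.1 to 9.72 in sham at 4 weeks. The 4-week naive arrays lay at 9.83 to 10.05, and DMM replicate 2 at 4 weeks, at 9.9, fell within that range.

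Neurotrophic factor receptors and ligands had a median of -0.22, with 12 of 15 lower and 0 called by limma. Lifr, a cytokine receptor subunit, had 15.2, 15.09 and 15.28 at 16 weeks, against 15.45, 15.69 and 15.44 at 4 weeks, a difference of -0.34 with an adjusted p of 0.0985. Ret, the receptor of the GDNF family, differed by -0.34 with an adjusted p of 0.172, and Gfra2, its coreceptor for neurturin, by 0.46 with an adjusted p of 0.113. Gfra2 rose in naive mice, by 0.85 with an adjusted p of 0.00136.

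Lists of neuron subtype markers held no called gene apart from Th. Peptidergic nociceptor genes had a median of -0.19 with 10 of 11 lower, and non-peptidergic and itch neuron genes a median of 0.19 with 12 of 17 higher; 0 were called in either list. Tac1, which gives substance P, had 11.79, 11.31 and 11.59 at 16 weeks, against 11.86, 12.18 and 11.6 at 4 weeks, and the groups overlapped. Sst, for somatostatin, had 11.54, 10.79 and 10.98 at 16 weeks, against 9.58, 10.78 and 9.94 at 4 weeks, a difference of 1.0 with an adjusted p of 0.138. Cd55, an inhibitor of complement, differed by 0.31 with an adjusted p of 0.113. In naive mice the non-peptidergic list had a median of 0.42, with 9 members called higher and 1 lower. Of all genes tested, 6.08% were called higher and 12.7% lower in naive mice. The 17 general neuron markers had a median of 0.01, with -0.07 after cyclic loess normalisation, and 0 were called; Tubb3, the neuronal tubulin, differed by -0.16 and Snap25, a synaptic fusion protein, by 0.14. In whole ganglia, fewer cells of a type and less RNA per cell cannot be told apart.

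Satellite glia genes had a median of -0.10, with 11 of 14 lower and 0 called. Kcnj10, the potassium channel by which these cells buffer potassium, had 8.62, 8.61 and 8.6 at 16 weeks, against 9.03, 9.33 and 9.26 at 4 weeks, a difference of -0.59 with an adjusted p of 0.065. Fabp7, a fatty acid binding protein of satellite glia, had 17.38, 17.26 and 17.1 at 16 weeks, against 17.59, 17.47 and 17.37 at 4 weeks, and the groups overlapped. Myelinating Schwann cell genes had a median of 0.13 with 11 of 13 higher. Egr2, the transcription factor that drives myelination, was the 1 called member, with 7.71, 8.06 and 8.06 at 16 weeks, against 7.56, 7.09 and 7.39 at 4 weeks, a rise of 0.59 ± 0.12 with an adjusted p of 0.0253. Egr2 is also an immediate early gene, and in that list of 19 it was again the 1 member called, beside a median of -0.01. Of all genes tested, 0.928% were called higher.

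Macrophage genes had a median of 0.07 with 13 of 20 higher and 7 lower. Cd68, a lysosomal protein of phagocytes, was the 1 member called, with 7.52, 7.55 and 7.18 at 16 weeks, against 6.94, 6.72 and 6.82 at 4 weeks, a rise of 0.59 ± 0.13 with an adjusted p of 0.0334. Of all genes tested, 0.928% were called higher. The call of Cd68 was lost without sham replicate 1 or 2 at 16 weeks, and without each 4-week sham array in turn. Cd163, a scavenger receptor of resident macrophages, had 6.32, 6.47 and 6.48 at 16 weeks, against 6.07, 6.0 and 6.12 at 4 weeks, a difference of 0.36 with an adjusted p of 0.0544. Csf1r, the receptor of the macrophage growth factor, had 7.26, 7.36 and 7.28 at 16 weeks, against 7.26, 7.14 and 7.12 at 4 weeks, a difference of 0.13 with an adjusted p of 0.565. The list means overlapped between the sham groups, at 6.85, 6.92 and 6.73 at 16 weeks and 6.9, 6.61 and 6.66 at 4 weeks.

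Lists of sheath cells had some of the largest positive medians, and 0 of their members was called. Fibroblast and meningeal sheath genes had a median of 0.50 with 18 of 19 higher and 5 without overlap (26.3%, against 25.9% of all genes tested). Their mean was 8.64, 9.37 and 8.76 at 16 weeks, against 8.34, 7.92 and 8.59 at 4 weeks, replicate 2 at 16 weeks being the highest. Ptgds, a prostaglandin synthase abundant in the meninges, had 12.44, 14.73 and 13.35 at 16 weeks, against 11.09, 8.92 and 13.88 at 4 weeks, which overlapped. Dcn, for the proteoglycan decorin, had 15.94, 16.08 and 15.61 at 16 weeks, against 15.09, 15.14 and 15.22 at 4 weeks, a difference of 0.73 with an adjusted p of 0.181. Col1a1 differed by 0.15 with an adjusted p of 0.865, and collagen chains as a list had a median of 0.00, with 12 of 23 higher. Other matrix genes had a median of -0.01. In DMM mice the fibroblast and sheath mean was 9.67, 10.28 and 7.81 at 16 weeks, against 8.66, 8.48 and 9.17 at 4 weeks, so replicate 3 at 16 weeks lay below every 4-week array. The part played by the amount of sheath in a sample was not tested.

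Perineurial genes had a median of 0.39, all 8 higher and 6 without overlap (75.0%, against 25.9% of all genes tested). Their means were 9.49, 9.44 and 9.22 at 16 weeks, against 8.95, 8.89 and 8.91 at 4 weeks, and did not overlap. Itgb4, the integrin that anchors perineurial cells to their basement membrane, had 9.35, 9.18 and 9.01 at 16 weeks, against 8.46, 8.53 and 8.71 at 4 weeks, a difference of 0.61 with an adjusted p of 0.126. Cldn1, a tight junction protein, had 9.9, 9.91 and 9.33 at 16 weeks, against 9.04, 8.8 and 8.75 at 4 weeks, a difference of 0.85 with an adjusted p of 0.235.

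Mast cell genes had a median of 0.36, with 5 of 8 higher and 4 without overlap (50.0%, against 25.9% of all genes tested). Cma1, a mast cell chymase, had 6.55, 6.61 and 6.65 at 16 weeks, against 6.29, 5.92 and 5.8 at 4 weeks, a difference of 0.60 with an adjusted p of 0.145. Neutrophil genes had a median of 0.41, with 8 of 10 higher and 0 without overlap. These genes were dim, with a median level of 4.98. The negative control medians of the 6 sham arrays were 5.07 to 5.25. Their mean was 5.01, 6.63 and 5.98 at 16 weeks, against 5.58, 5.37 and 5.24 at 4 weeks, so replicate 1 at 16 weeks was below every 4-week array and replicate 2 above all. The median was 0.11 without replicate 2 at 16 weeks.

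**Figure D3:**
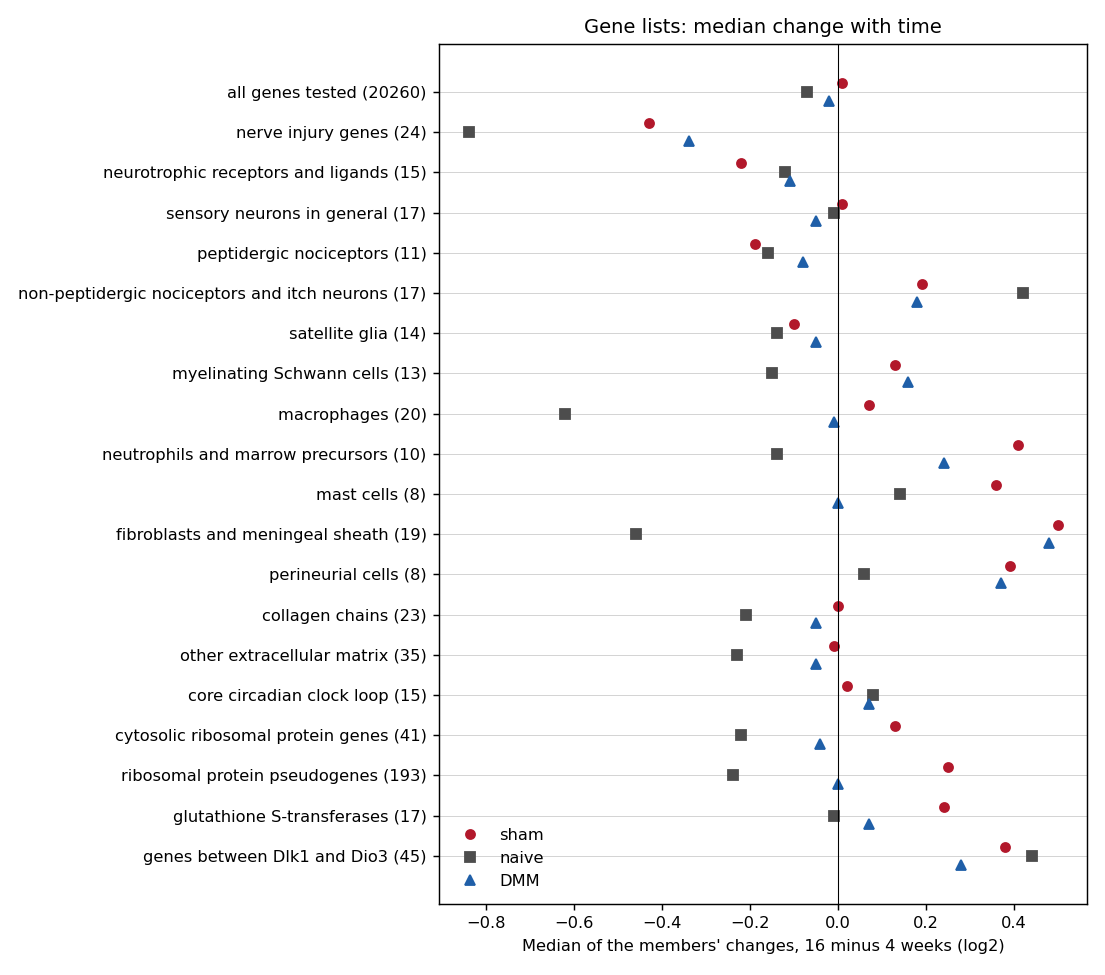
Median change from 4 to 16 weeks (16 minus 4, log2) of the tested members of each list, in sham, naive and DMM mice; the number tested is in parentheses. For fibroblasts and meningeal sheath sham lies at 0.50, naive at -0.46 and DMM at 0.48, with 0 of 19 members past either interaction test, while the nerve injury list is below 0 in all 3.

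The circadian clock is a loop of transcription factors that drives daily rhythms, and Per3 is one of its repressors. Per3 had 7.36, 7.43 and 7.45 at 16 weeks, against 6.48, 6.62 and 6.89 at 4 weeks, a rise of 0.76 ± 0.17 with an adjusted p of 0.034. It was the 1 called of 15 clock genes, where 0.928% of all genes tested were called higher. The median of the clock genes was 0.02. Nr1d1, the repressor of Arntl, had 10.16, 10.21 and 9.89 at 16 weeks, against 8.95, 9.28 and 9.33 at 4 weeks, a difference of 0.90 with an adjusted p of 0.088. Arntl, the activator that Nr1d1 represses, had 6.34, 6.21 and 6.04 at 16 weeks, against 6.69, 6.52 and 6.52 at 4 weeks, a difference of -0.38 with an adjusted p of 0.0978. Dbp, a clock output factor, had 9.62, 9.92 and 9.64 at 16 weeks, against 8.64, 8.87 and 9.25 at 4 weeks, a difference of 0.81 with an adjusted p of 0.0588. These 4 genes showed no overlap between the groups, whereas Per2, another clock gene, did overlap (0.37, adjusted p of 0.134). Of the 15 clock genes, which do not include Dbp, 4 were higher and 3 lower without overlap. That is 46.7% of the list, against 25.9% of all genes tested. The labels do not give the hour at which tissue was taken.

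Dbp protein binds D-box elements. The promoter of Per3 (GRCm38.p6, RefSeq, chr4:151044616-151044915, minus strand) is shown because Per3 was the clock gene that passed the test. Capitals mark the D-box letters TTATGTAA, which occur 2 times. The E-box CACGTG and the letters AGGTCA, to which Nr1d1 binds within a longer element, were not found in this window on either strand.
Per3 promoter: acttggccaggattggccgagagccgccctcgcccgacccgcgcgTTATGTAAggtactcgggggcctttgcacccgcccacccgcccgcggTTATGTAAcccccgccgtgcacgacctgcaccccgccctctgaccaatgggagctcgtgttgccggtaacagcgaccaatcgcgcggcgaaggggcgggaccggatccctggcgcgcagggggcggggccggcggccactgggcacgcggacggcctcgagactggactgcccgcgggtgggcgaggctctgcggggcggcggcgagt
Of 27025 mouse promoters of this length, 0.955% held the D-box letters on either strand, 7.24% held the E-box and 16.0% held AGGTCA. The promoter windows of Nr1d1, Arntl and Dbp held 0 of these 3 motifs. Only the exact letters within 300 bases were searched, so variants and elements outside the window were not counted. A match in the letters is a description of the sequence alone.

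Genes of the ribosome and their processed copies had small positive medians. Both lists were made after the values were seen. Of 41 cytosolic ribosomal protein genes, 37 were higher and 4 lower with a median of 0.13, and 1 was called, Rpl12, with 15.1, 15.12 and 15.03 at 16 weeks, against 14.84, 14.63 and 14.74 at 4 weeks. Of 193 ribosomal protein pseudogenes, 185 were higher and 8 lower with a median of 0.25. Of these 12 were called, all higher, where 0.928% of all genes tested were called higher. Rpl28-ps1 had 14.83, 14.8 and 14.93 at 16 weeks, against 14.4, 14.31 and 14.32 at 4 weeks, and rose by 0.51 ± 0.08 with an adjusted p of 0.00718. Pseudogene probes can take signal from the parent gene, so the 2 lists are not independent. The pseudogene mean was 10.83, 10.8 and 10.87 at 16 weeks, against 10.64, 10.62 and 10.56 at 4 weeks, with no overlap.

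Naive mice of the same ages were compared in the same way. Their 4-week arrays had nerve injury means of 10.02, 9.83 and 10.05, above every 4-week sham array. Atf3 stood at 9.2, 8.69 and 9.6 in naive mice at the 4-week age. At the 8-week age it stood at 6.83, 6.85 and 7.89. The cause was not tested, and all naive changes given here rest on these 4-week arrays. Limma called 3811 genes in naive mice (18.8%), 1232 higher (6.08%) and 2579 lower (12.7%), and 582 in DMM mice (2.87%), 218 higher (1.08%) and 364 lower (1.8%). The naive count was 2164 without naive replicate 1 at 16 weeks and 2282 without replicate 3 at 4 weeks. The DMM count was 105 without DMM replicate 2 at 16 weeks, and 9, 321 and 262 without replicates 1, 2 and 3 at 4 weeks. The share of calls that were higher was 52.7% in sham, 32.3% in naive and 37.5% in DMM mice as deposited, 42.7%, 56.0% and 44.5% after cyclic loess, and 36.9%, 47.6% and 26.5% after median centring. No array is shared among the 3 comparisons, but all 3 used the same estimate of spread for each gene, so their calls are not fully independent. Of the 357 genes called in sham, 296 changed in the same direction in naive mice (82.9%), against 58.2% of all genes tested. In DMM mice 347 did (97.2%), against 68.6% of all genes. Of the 357, 143 were also called in naive mice in the same direction, which is 40.1% of the sham calls and 3.75% of the naive calls, and 88 were in DMM mice, which is 24.6% of the sham calls and 15.1% of the DMM calls. A further 18 genes were called in both sham and naive mice in opposite directions, all of them higher in sham.

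In all 3 kinds of mice 61 genes were called in the same direction, 44 higher and 17 lower. Those of large change among them included Mir5125, Pltp, Leng8, Gstm1, Lncpint, Per3 and Stmn4. Pltp had a change of 1.05 in sham, 0.65 in naive and 1.06 in DMM mice. Lncpint had a change of 0.90 in sham, 1.49 in naive and 1.02 in DMM mice. Mir5125 had a change of 1.39 in sham, 1.51 in naive and 1.23 in DMM mice. Their shared direction follows from how they were chosen.

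**Figure D4:**
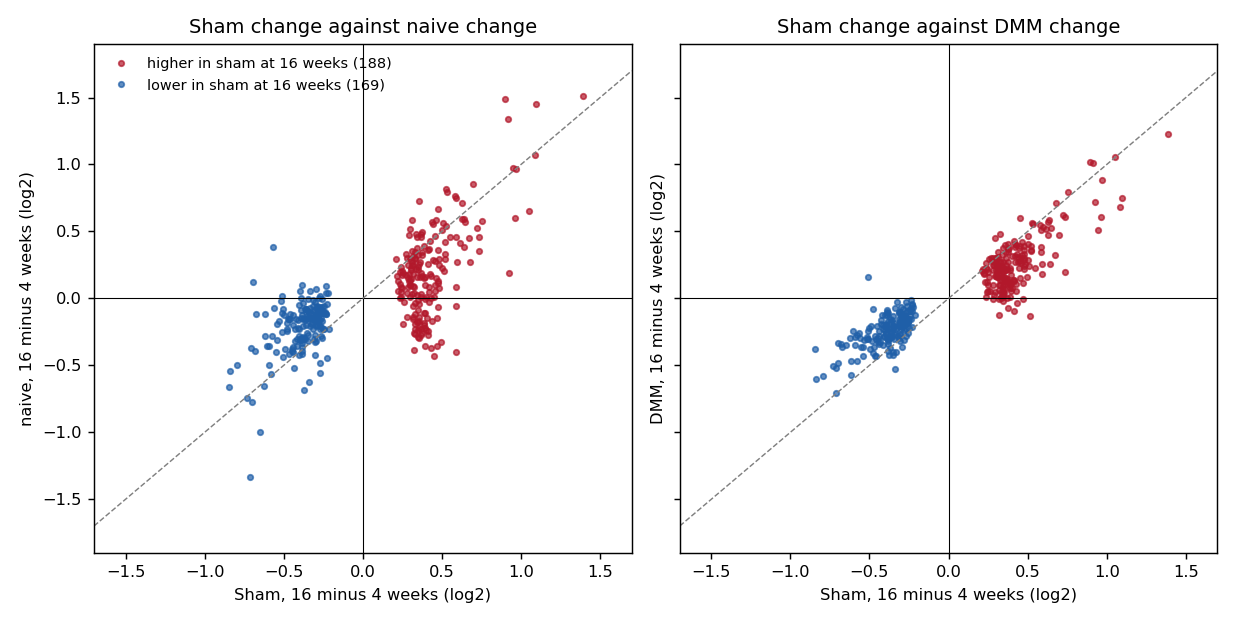
Change from 4 to 16 weeks (16 minus 4, log2) of the 357 genes called in sham mice, against the change of the same genes in naive mice (left) and DMM mice (right); the dashed line marks equal change. In naive mice 48 of the 188 genes higher in sham lie below 0, and in DMM mice 9 do.

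The interaction contrast, which tests whether the change in sham differed from that in naive mice, called 424 genes (2.09%), 387 with a more positive change in sham (1.91%) and 37 with a more negative one (0.183%). This direction depended on scaling: the more positive share was 91.3% as deposited, 63.7% after median centring and 34.0% after cyclic loess, where 161 of the 424 remained called. The count was 122 without naive replicate 1 at 16 weeks, 156 and 225 without naive replicates 1 and 3 at 4 weeks, 242, 193 and 222 without sham replicates 1, 2 and 3 at 16 weeks and 158 without sham replicate 2 at 4 weeks. Macrophage genes had a median of 0.07 in sham and -0.62 in naive mice, where 16 of 20 were called lower, against 12.7% of all genes tested. The interaction test was passed by 10 of the 20, each more positive in sham, against 1.91% of all genes tested. After cyclic loess the medians were 0.06 in sham and -0.57 in naive mice. Mrc1, the mannose receptor of resident macrophages, had a change of 0.36 in sham and -0.72 in naive mice, and Lyz2, for lysozyme, of 0.43 in sham and -1.03 in naive mice. The naive arrays at the 4-week age had macrophage means of 7.17, 7.41 and 7.15, above all 3 sham arrays of that time.

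Ribosomal protein pseudogenes were called lower in 68 of 193 cases in naive mice, against 12.7% of all genes tested, with a median of -0.24. The interaction test was passed by 60, each more positive in sham, against 1.91% of all genes tested. After cyclic loess the medians were 0.22 in sham and -0.15 in naive mice. Tmem178b, among the 12 called genes of largest fall in sham, had a change of -0.70 in sham and 0.12 in naive mice, and the difference between them had an adjusted p of 0.0589. Gm6665 had a change of 0.93 in sham and 0.19 in naive mice, and the difference had an adjusted p of 0.16. Against DMM mice, the interaction contrast called 0 genes with limma, with 1193 at an unadjusted p under 0.05 (5.89%), and 0 or 1 gene in every alternative run.

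The single sham array at 8 weeks gave values but no test. It lay between the means of the 2 sham groups for 114 of the 188 genes called higher and for 114 of the 169 called lower. It lay at or beyond the 4-week mean for 69 and 49 of them, and past the 16-week mean for 5 and 6. In the median gene it had gone 12.7% of the way among those higher and 16.7% among those lower. Mir5125 stood at 10.72, Lncpint at 10.36 and Per3 at 7.26 on this array, nearer to the 16-week means of 11.07, 10.07 and 7.42. Itgb8 at 11.87, Stmn4 at 7.07 and Pltp at 9.45 were nearer to the 4-week means of 11.91, 7.12 and 9.19.

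**Figure D5:**
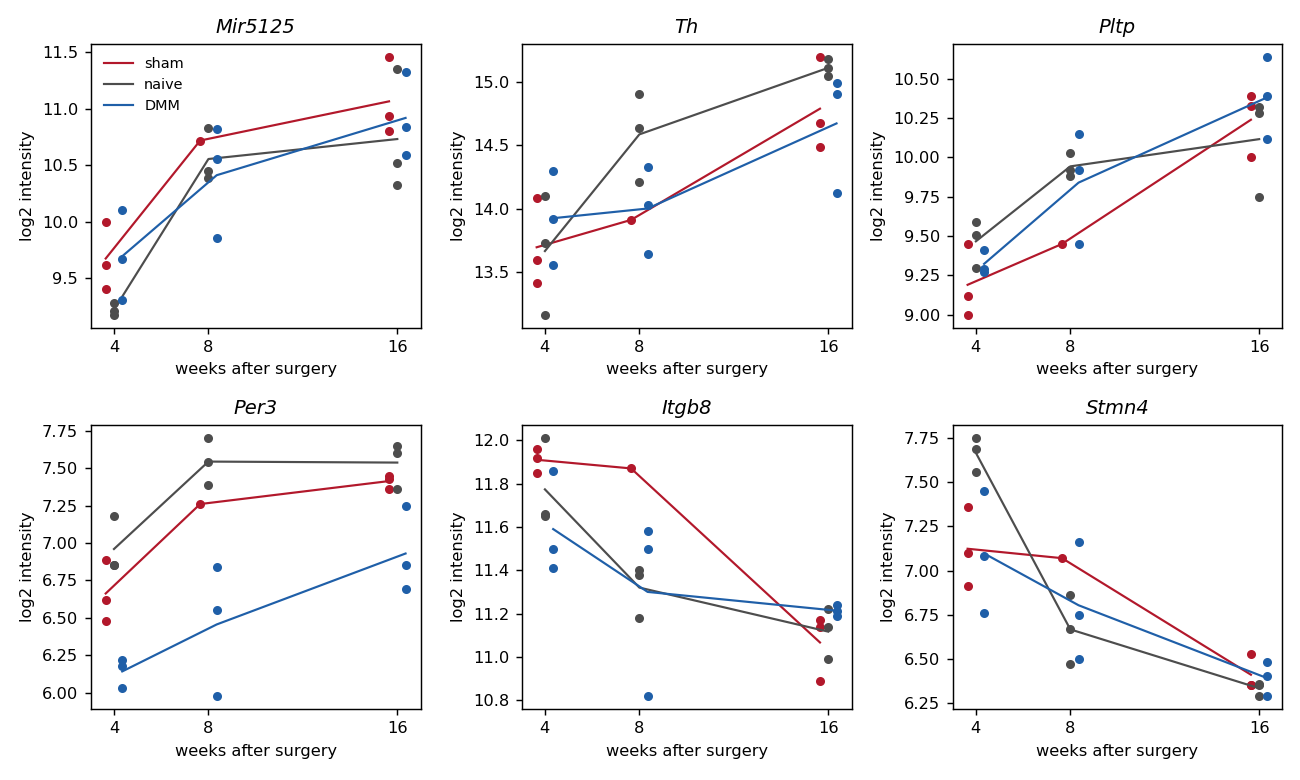
Log2 intensity of 6 genes at 4, 8 and 16 weeks in sham, naive and DMM mice, with a point per array and lines through the means; sham at 8 weeks is a single array, and points are shifted sideways for clarity. Mir5125 on the 8-week sham array, at 10.72, lies near the 16-week sham mean of 11.07, whereas Itgb8, at 11.87, lies near the 4-week sham mean of 11.91.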

How the data were processed

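Affymetrix arrays measured RNA from dorsal root ganglia L3 to L5 on 25 arrays in 9 groups, per the labels' protocols. The deposited values are log2 intensities, 1 per probe set, summarised and normalised by the authors; no source used here gives the software, method or genome build, and the log2 scale was read from the values (2.23 to 19.7). Arrays carry no read depth, so the number of arrays limits precision: a 95% interval for a difference of 3 against 3 arrays reached 0.203 (log2) to either side in the median gene.

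Of 72685 probe sets, 6729 controls were left out. Of the other 65956, 30604 have 1 gene symbol, 2146 several and 33206 none in GEO's platform annotation; 827 symbols were updated through Entrez identifiers. For 355 genes with more than 1 probe set the brightest was used. Genes had to exceed the 40th percentile of probe set means. In R 4.3.3, limma 3.58.1 fitted 1 mean per group over all 25 arrays (lmFit, eBayes, two-sided, 16 residual degrees of freedom), with Benjamini-Hochberg adjustment over all 20260 genes and a threshold of 0.05. The procedure was also run on simulated data, drawn independently for each gene and array, and its outcome is not used here. Errors of differences are SE of the fit; arrays per group are 3 unless stated.

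Genes named were the 12 higher and 12 lower called genes of largest change without overlap, up to 4 members of smallest p for each list described, a set of fixed genes and up to 4 genes per interaction; the lists described were those with the 8 largest absolute medians among lists of 8 or more members, and 8 fixed lists. Others are said to be chosen after their values were seen. In all 45 lists were fixed (25 of pathways, 20 of cell types) and 4 added later. Members and lists were chosen with earlier results of these data known. Same-numbered sham arrays did not deviate together (correlations of -0.012, -0.267 and -0.143), so they were not treated as pairs. No batch is given in the labels. Alternatives changed the filter, the arrays in the fit, the block, the prior, the normalisation, the probe set rule, array weights and single arrays.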

Additional observations from a re-analysis of the deposited data

Results flagged for a closer look

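The change between 4 and 16 weeks differed between sham and naive mice for 424 genes by the interaction contrast, with limma and adjustment over all genes tested. Among macrophage genes, the sham change exceeded the naive change by 1.46 for Lyz2, 1.08 for Mrc1, 0.99 for Cd68, 0.81 for Csf1r and 0.74 for Tyrobp (log2). Cd68 rose in sham mice and fell in naive mice, whereas the other 4 fell in naive mice and did not pass the test in sham mice. The sham call of Cd68 was itself lost when any single sham array other than replicate 3 at 16 weeks was left out. Among predicted genes, the difference was 0.91 for Gm24463, 0.81 for Gm11603, 0.73 for Gm12599, 0.73 for Gm25835 and 0.71 for Gm11942. Ssb, which codes for an RNA-binding protein of small RNA processing, differed by 0.51, and the mitochondrial fission gene Mff by 0.40. The causes were not tested, and the direction depends on the scaling, with a more positive change in sham in 91.3% of the genes called as deposited, 63.7% after median centring and 34.0% after cyclic loess.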

How the results depend on the processing

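The sham count of 357 genes was 916 with array weights, 191 with no filter on dim genes, 577 with the stricter filter, 0 on the 6 arrays alone and 7 to 268 without single arrays; the cause was not tested. The fit with the replicate number as a block called 204, although the numbers do not pair the arrays. It was 471 after cyclic loess (42.7% higher, against 52.7% as deposited), with 337 of the 357 still called, and 420 after median centring (36.9% higher), an alternative chosen, like all those of the naive and DMM changes, after seeing the data. The naive count of 3811 ranged from 2164 to 3083 without single arrays, with 56.0% higher after loess and 47.6% after centring, against 32.3%. The DMM count of 582 was 902 with array weights, 365 with no filter and 9 to 771 without single arrays, and 26.5% were higher after centring, against 37.5%. The difference between sham and naive changes, 424, was 1312 with array weights, 259 after median centring, 677 with the stricter filter, 365 after loess and 122 to 439 without single arrays. The difference between sham and DMM changes called 1 gene with array weights, after median centring and with the stricter filter, and 0 to 1 without single arrays. The fit on the arrays compared was not run for the naive and DMM changes alone. Of 104 named genes under each alternative, 1553 values in all, 1334 kept their side of the threshold and direction, 188 lost the call, 31 gained it and 0 reversed. Of 285 list medians, 270 moved by less than the spread between arrays.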

Other observations

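Of the lists not described above, some had 1 called member in sham mice, named here after its values were seen. Sgk1, a glucocorticoid-induced kinase, rose by 0.39 ± 0.09 among 20 glucocorticoid-responsive genes, and Htr1d, a serotonin receptor, rose by 0.36 ± 0.09 among 23 sensory receptors. Fasn, the fatty acid synthase, fell by 0.56 ± 0.14 among 20 genes of cholesterol synthesis and uptake, and Sox4, a developmental transcription factor, fell by 0.51 ± 0.11 among 17 growth genes. The medians of these 4 lists lay between 0.01 and 0.06. Of all genes tested, 0.928% were called higher and 0.834% lower in sham mice. By limma, 0 members passed the test in sham mice in the lists for interferon-stimulated genes, class II antigen presentation, complement, chemokines, oxidative phosphorylation, cell cycle, sodium channels and potassium channels. Interferon-stimulated genes had a median of -0.15 in sham mice, with 19 of 27 lower, and -0.36 in naive mice, with 10 called lower. In naive mice 12.7% of all genes tested were called lower and 6.08% higher. Class II genes had a median of 0.18 in sham and -0.37 in naive mice, with 3 of 10 called lower in the naive ones. Complement genes had 0.16 in sham and -0.25 in naive mice, with 6 of 14 called lower and 1 higher in the naive ones.

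Oxidative phosphorylation subunits had a median of 0.06 in sham mice, with 26 of 32 higher, and -0.16 in naive mice, with 11 called lower. Voltage-gated sodium channel subunits had -0.04 in sham and 0.14 in naive mice, where all 11 were higher and 2 were called. Potassium and HCN channel genes had -0.11 in sham mice, with 23 of 31 lower, and 0.19 in naive mice, with 5 called higher and 1 lower. Of all genes tested, 6.08% were called higher and 12.7% lower in naive mice. Cell cycle genes had -0.02 in sham and -0.20 in naive mice, with 8 called lower in the naive ones.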
